A study of Oryctolagus cuniculus with 30 samples.

Results

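Covered wounds at day 3 were compared with wounds at closure, to follow what the epidermis of a newly closed wound changes during its first 3 days under occlusive film. The groups were taken from the sample titles and hold 11 of the 30 arrays of the series, 5 of covered wounds at day 3 and 6 of wounds at day 0. All samples were epidermis from the ears of New Zealand White rabbits, a common laboratory breed. The animals were female, and the labels name no genetic change. Superficial grids of incisions had been cut with a double-bladed scalpel, and both groups healed beneath a single layer (1) of the clear adhesive film Tegaderm until the surface had closed 2 days after wounding. That moment is day 0, and the 6 arrays of the first group were made from wounds taken then. The 5 covered samples came from left ears that received 4 further layers and were taken 3 days later. Right ears had the film removed, and their wounds at day 3 (6 arrays) are used below as a reference. Ammonium thiocyanate (0.5 M, 30 min) loosened the epidermis from the dermis, and each labelling reaction took 400 ng of RNA. The day 0 wounds had already been under film, so time since closure and the extra layers cannot be told apart in this comparison. The labels tie no array to an animal. The p-values therefore reflect no more than the spread among arrays of the same group, which may be technical. That spread was estimated for each probe over all 30 arrays in 6 groups, not over these 11 alone. Ears of the same rabbit may have entered both compared groups.

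When skin is cut, keratinocytes at the edge loosen their attachments, migrate under the clot and divide, and they switch on genes of stress, inflammation and matrix breakdown that resting epidermis keeps low. Once the sheet is continuous, the cells return step by step to layered differentiation and rebuild the barrier that limits water loss. An occlusive film takes over part of that barrier from outside and keeps the surface hydrated, a state known to alter keratinocyte signalling and used clinically in scar care.

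The array carries 23369 probes of 60 nucleotides from 11408 rabbit contigs or clones, and the deposited files describe every probe as unknown. Genes were not assigned here, and probes are given by identifier and sequence. Names hold a class code, AF (14558 probes), UN (8138) or AM (673). For the same reason the lists of pathway genes and of markers of other cell types were not used here, and the labelled tissue could not be checked against keratinocyte markers. The part of other cells in any change below was not tested. In samples of whole epidermis, fewer cells of a type and less RNA per cell cannot be told apart.

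The probes below are printed as examples of large changes in either direction, and their values follow further on. For 6 contigs or clones both probes are shown. Capitals mark AATAAA, the hexamer that precedes the cleavage site of most polyadenylated mRNAs. The first 10 probes were lower in covered wounds and the other 10 were higher.
UF_Ocu_AF_112455: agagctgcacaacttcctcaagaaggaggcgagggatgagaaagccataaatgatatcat
UF_Ocu_AF_112456: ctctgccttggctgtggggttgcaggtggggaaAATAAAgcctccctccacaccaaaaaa
UF_Ocu_AF_101828: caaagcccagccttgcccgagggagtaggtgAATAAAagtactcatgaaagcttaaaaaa
UF_Ocu_AF_101829: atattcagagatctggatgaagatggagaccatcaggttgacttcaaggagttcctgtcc
UF_Ocu_AF_101793: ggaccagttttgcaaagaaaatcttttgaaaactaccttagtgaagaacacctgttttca
UF_Ocu_AF_101792: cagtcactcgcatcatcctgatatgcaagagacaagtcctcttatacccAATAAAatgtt
UF_Ocu_AF_103881: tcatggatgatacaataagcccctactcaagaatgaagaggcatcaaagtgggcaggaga
UF_Ocu_AF_112391: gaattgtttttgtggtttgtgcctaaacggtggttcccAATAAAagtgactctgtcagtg
UF_Ocu_AF_104471: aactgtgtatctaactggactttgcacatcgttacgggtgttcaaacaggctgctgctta
UF_Ocu_AF_104470: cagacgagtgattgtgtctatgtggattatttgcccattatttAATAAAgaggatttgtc
UF_Ocu_AF_111842: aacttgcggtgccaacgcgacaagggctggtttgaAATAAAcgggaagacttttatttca
UF_Ocu_AF_111843: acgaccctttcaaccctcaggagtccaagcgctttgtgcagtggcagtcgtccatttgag
UF_Ocu_AF_101059: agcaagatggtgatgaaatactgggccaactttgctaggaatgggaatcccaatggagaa
UF_Ocu_AF_104733: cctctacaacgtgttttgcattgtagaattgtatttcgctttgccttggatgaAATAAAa
UF_Ocu_AF_107674: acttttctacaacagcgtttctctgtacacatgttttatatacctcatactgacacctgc
UF_Ocu_AF_108658: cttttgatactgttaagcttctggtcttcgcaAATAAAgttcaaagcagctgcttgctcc
UF_Ocu_AF_113899: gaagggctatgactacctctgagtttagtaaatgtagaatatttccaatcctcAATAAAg
UF_Ocu_AF_101996: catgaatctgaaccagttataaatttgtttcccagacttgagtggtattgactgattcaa
UF_Ocu_AF_101997: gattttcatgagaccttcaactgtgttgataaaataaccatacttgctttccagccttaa
UF_Ocu_UN_118492: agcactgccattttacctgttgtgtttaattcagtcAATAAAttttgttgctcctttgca

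Levels are log2 processed signals minus the 75th percentile of the array, so a level of 0 equals that percentile, and levels near -8 are at background. Changes are differences of these levels, covered day 3 minus day 0. The share of probes well above background ran from 41.5% to 50.4% on the covered arrays and from 39.7% to 47.6% on the day 0 arrays. Across tested probes the covered arrays correlated with each other at r from 0.964 to 0.993, and the day 0 arrays at r from 0.927 to 0.981. The median SD of a probe was 0.28 among covered wounds and 0.41 among day 0 wounds. The change from day 0 and the difference between covered and uncovered wounds at day 3 were tested with limma. Other levels, of unwounded skin, at day 5 or on single slides, are given without a test. Among these reference arrays, unwounded replicate 2 and covered day 5 replicate 1 were the only arrays on slide 6 and on scan day 1. Covered day 5 replicate 1 also had 595 outlier-flagged spots and 169 saturated probes, the most of any array. Adjusted p-values are Benjamini-Hochberg values over all 12341 probes detected (well above background) on 2 or more arrays of the series.

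Of these 12341 tested probes, 5495 (44.5%) were called at an adjusted p under 0.05. Covered wounds were higher for 3250 probes (26.3%) and lower for 2245 (18.2%). The median change of all tested probes was 0.17, and single changes are to be read relative to it. The balance of higher and lower calls rested on the scaling. It was 2509 higher and 2737 lower with the percentile taken over all probes, 2730 and 2618 with quantile normalization, 1672 and 1762 with normexp background correction, and 2713 and 2638 with the values of the authors' deposited table. Neither direction is therefore reported as the more frequent. Arrays of both groups did not overlap for 30.3% of tested probes (17.9% higher, 12.5% lower).

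The balance also varied with the size of the change. Median changes of called probes were 1.08 for the higher and -0.99 for the lower ones, while 94 probes fell by at least 8-fold and 80 rose by as much. Measured from the median of all probes, these counts were 111 and 67. With normexp they were 47 and 22, and with the authors' deposited values 39 and 15, so the excess of 8-fold falls kept its direction in each of these. Changes of at least 2-fold were seen for 1782 higher and 1098 lower called probes, and those of at least 4-fold for 368 and 258. The excess of 2-fold rises shrank or turned with the scaling, to 1433 and 1396 measured from the median, 1412 and 1462 with the percentile over all probes, 1432 and 1309 with quantile normalization, 776 and 846 with normexp, and 785 and 730 in the authors' deposited values. That of 4-fold rises turned in each of these counts, to 287 and 313, 290 and 313, 274 and 283, 115 and 159, and 102 and 122. The normexp counts were not measured from the median change under normexp, -0.12. From that median there were 958 rises and 712 falls of at least 2-fold, and 141 and 130 of at least 4-fold. The excess of 4-fold rises thus did not turn there.

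**Figure D1:**
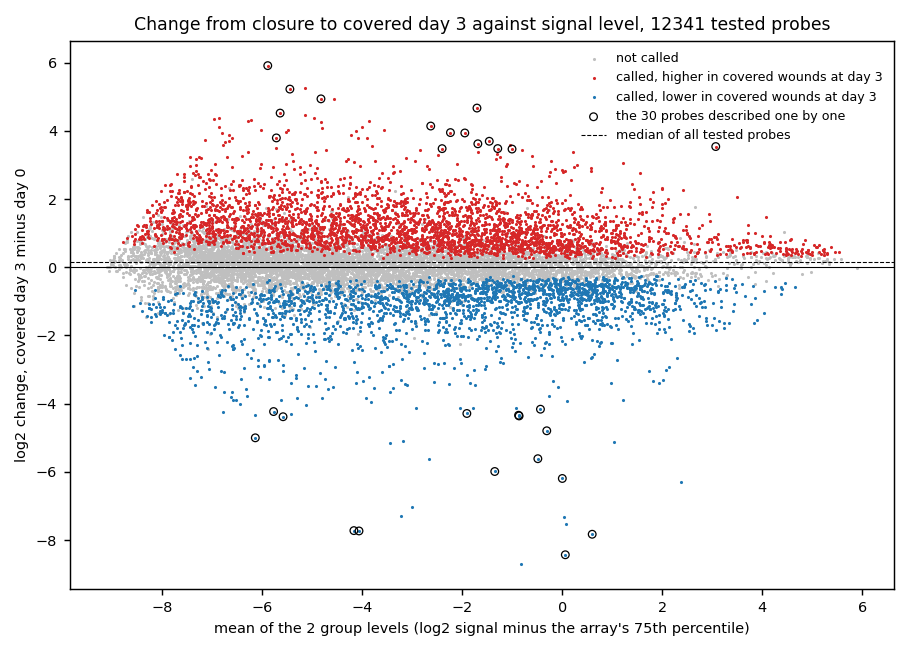
Each point is 1 of the 12341 tested probes. The horizontal axis is the mean of both group levels (log2 signal minus the array's 75th percentile), the vertical axis is the log2 change, covered day 3 minus day 0, and circles mark the 30 probes described one by one. The widest falls reach -8.69 while the widest rise is 5.92, and calls occur at every level.

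Only 2 slides held an array of each group. These arrays had entered the fit that made the calls, so the shares below describe them and support nothing. On slide 4, covered replicate 5 differed from day 0 replicate 6 in the called direction for 97.4% of the higher and 98.5% of the lower probes. On slide 11, covered replicate 3 against day 0 replicate 4, the shares were 98.0% and 98.2%. With slide as a fixed block in the fit, 3477 probes were higher and 2355 lower.

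The share of calls differed with signal level. With tested probes cut into 5 equal groups by level, 21.4% of the dimmest group were higher and 9.52% lower in covered wounds, and 29.5% and 31.1% of the brightest group. The median change was 0.26 in the dimmest group and 0.05 in the brightest.

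The largest falls among probes well above background on every array of both groups are described first. There were 1258 such probes, from 832 contigs, that were called lower with groups that did not overlap, and the 10 below are the largest, 1 per contig. They fell by at least 17.9-fold.

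UF_Ocu_AF_112455 fell furthest. Its levels at day 0 ran from 3.87 through a median of 4.30 to 4.67. In the 5 covered wounds they were -1.62, -4.44, -5.09, -3.90 and -5.72. No covered array came near a day 0 array, and covered replicate 1 was the highest of its group. The change was -8.43 (SE 0.57, limma adjusted p = 1.44e-11), a 345-fold fall. Uncovered wounds at day 3 lay between, at 1.90 ± 0.80 (SD, n = 6), and unwounded skin at -4.07 ± 0.03 (SD, n = 2). The other probe of the contig, UF_Ocu_AF_112456, fell from 5.52 ± 0.24 (SD, n = 6) to -0.78 ± 1.30 (SD, n = 5), a change of -6.30 (SE 0.47, limma adjusted p = 6.17e-11).

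UF_Ocu_AF_101828 was at 4.11, 4.56 and 4.95 at day 0 (lowest, median and highest). The covered values were -0.41, -3.22, -4.93, -2.34 and -5.68. They spread over more than 5 log2 units, with covered replicate 1 again highest, and all stayed below every day 0 array. The change was -7.83 (SE 0.68, limma adjusted p = 6.97e-10), a 228-fold fall. Its contig partner UF_Ocu_AF_101829 changed by -8.69 (SE 0.79, limma adjusted p = 1.59e-09) and was detected above background on 3 covered arrays out of 5. In uncovered wounds at day 3 UF_Ocu_AF_101828 was still at 3.36 ± 0.71 (SD, n = 6).

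UF_Ocu_AF_101793 had day 0 levels of 0.51 (lowest), 1.20 (median) and 3.34 (highest). Covered wounds were at -4.26, -3.48, -4.58, -4.14 and -5.27. The groups were far apart, and here the wider spread was at day 0. The fall was 63.5-fold (log2 change -5.99, SE 0.47, limma adjusted p = 1.7e-10). UF_Ocu_AF_101792 of the same contig changed by -5.13 (SE 0.38, limma adjusted p = 7.33e-11). In uncovered wounds UF_Ocu_AF_101793 lay at -0.11 ± 0.18 (SD, n = 6) at day 3 and at 0.48 ± 0.15 (SD, n = 6) at day 5, against -5.92 ± 0.94 (SD, n = 5) in covered wounds at day 5.

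UF_Ocu_AF_103881 was the most even of these falls. Day 0 levels ran from -0.29 through 0.19 to 0.98, and covered wounds were at -3.80, -3.82, -4.33, -4.25 and -4.07. Every covered array lay within about the same narrow band, which also held unwounded skin (-4.01 ± 0.10, SD, n = 2). The change was -4.29 (SE 0.29, limma adjusted p = 1.06e-11). Its partner UF_Ocu_AF_103880 changed by -3.89 (SE 0.24, limma adjusted p = 2.69e-12).

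UF_Ocu_AF_112391 fell 17.9-fold, from 1.64 ± 0.68 (SD, n = 6) to -2.52 ± 0.46 (SD, n = 5), with covered values of -2.54, -2.82, -3.10, -2.16 and -1.98. Its partner UF_Ocu_AF_112392 moved almost identically (change -4.12, SE 0.37, limma adjusted p = 1.06e-09).

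A pair of contigs each supplied a probe, and these probes share most of their sequence. Capitals mark the shared stretch of 51 bases.
UF_Ocu_AF_111934: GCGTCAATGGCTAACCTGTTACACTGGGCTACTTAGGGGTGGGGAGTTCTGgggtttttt
UF_Ocu_AF_103873: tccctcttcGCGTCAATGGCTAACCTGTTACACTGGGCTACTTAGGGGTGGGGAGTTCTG
They read nearly the same target and are not independent. UF_Ocu_AF_111934 was at -3.10, -3.33, -3.38, -2.76 and -2.65 in covered wounds and UF_Ocu_AF_103873 at -3.10, -3.30, -3.36, -2.80 and -2.67. Their changes were -4.36 (SE 0.24, limma adjusted p = 6.65e-13) and -4.34 (SE 0.23, limma adjusted p = 3.13e-13). These covered levels lay below both unwounded arrays, where UF_Ocu_AF_111934 was at -1.12 ± 0.80 (SD, n = 2). The remaining probes of both contigs changed less, UF_Ocu_AF_111935 by -2.22 (SE 0.31, limma adjusted p = 1.15e-06) and UF_Ocu_AF_103874 by -0.18 (SE 0.22, limma adjusted p = 0.558), the latter not past the threshold.

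Of the 3 remaining falls, 2 were UN probes and 1 was an AM probe. UF_Ocu_UN_121601 was at -1.91, -3.37, -3.29, -3.43 and -3.48 in covered wounds and between 2.70 and 3.46 at day 0. Covered replicate 1 lay above 4 tightly grouped arrays, and it was also the highest for both AF probes named first. The change was -6.19 (SE 0.50, limma adjusted p = 2.2e-10). UF_Ocu_UN_117997 fell from 2.32 ± 0.41 (SD, n = 6) to -3.30 ± 0.68 (SD, n = 5), a change of -5.61 (SE 0.54, limma adjusted p = 3.84e-09). Both are the strand of their contig whose opposite probe, UF_Ocu_UN_119906 and UF_Ocu_UN_120330, was well above background on no array of either group. UF_Ocu_AM_115100 is taken up with the strand pairs below.

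**Figure D2:**
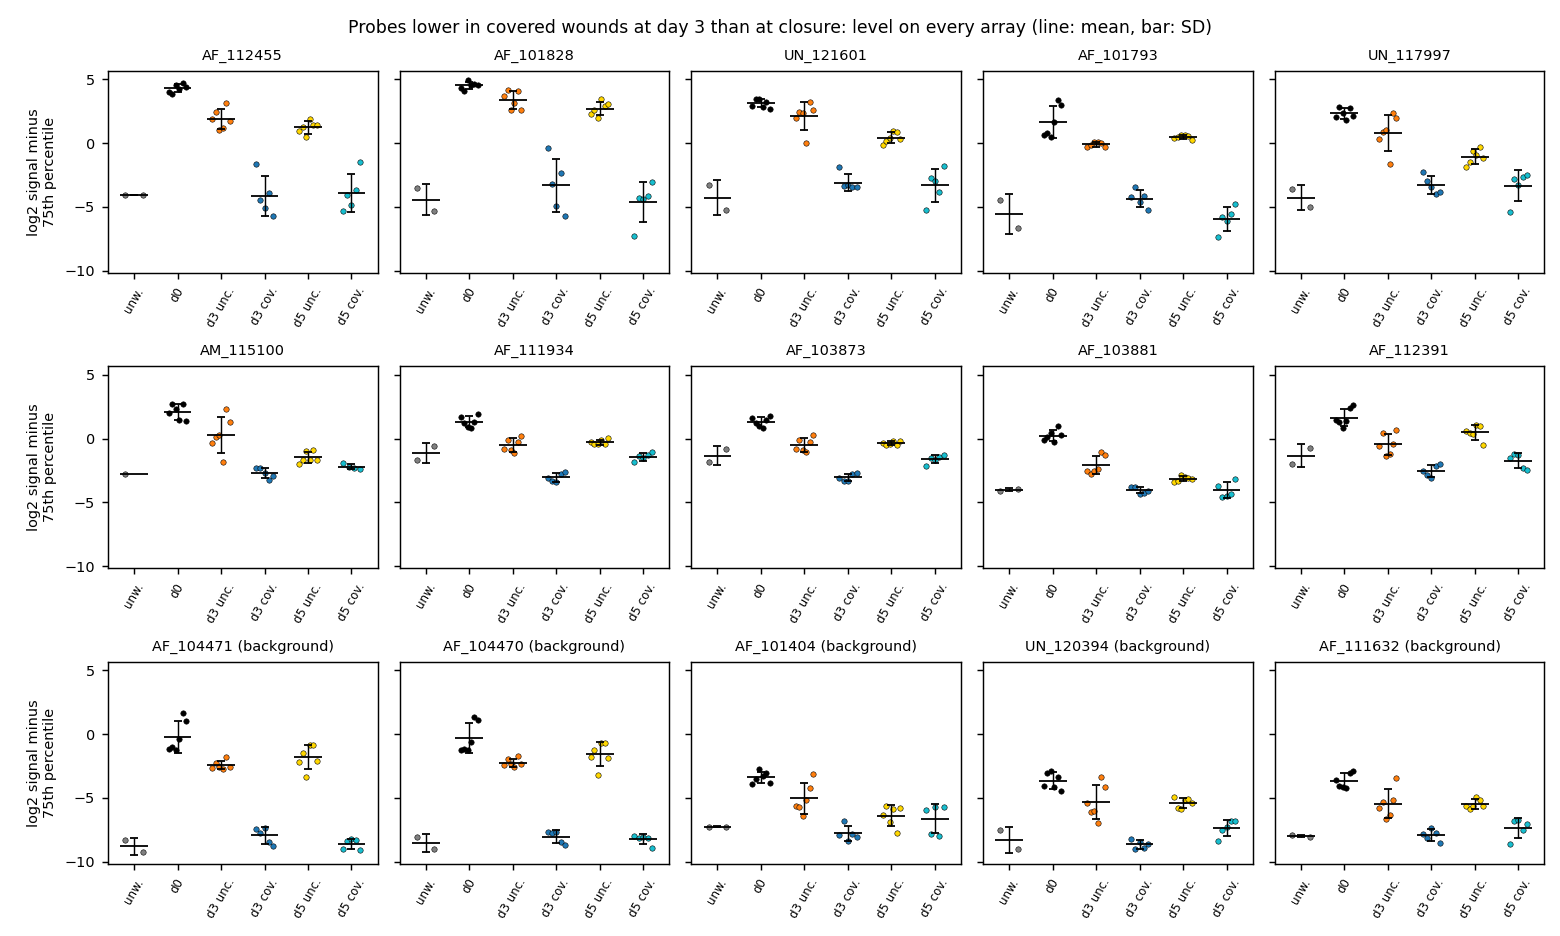
Levels (log2 signal minus the array's 75th percentile) of the 15 described falls on every array, by group: unwounded, day 0, uncovered and covered wounds at day 3, and the same at day 5. Points are arrays, lines are means and bars are SD, and "background" marks probes that were well above background on no covered array at day 3. Panel titles leave out the start of the names that all probes share. UF_Ocu_AM_115100 has a value on 1 of the 2 unwounded arrays. Axis labels shorten unwounded (unw.), day (d), uncovered (unc.) and covered (cov.). In every panel the covered arrays at day 3 lie below all day 0 arrays, and the uncovered mean at day 3 lies between both.

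Other probes fell to background. Of 29 probes that were well above background on all 6 day 0 arrays and on no covered array, 28 were called lower and 27 also had separate groups. Over all tested probes 18.2% were called lower, and 12.5% were lower without overlap. The 29 probes were chosen by their detection, so their calls were nearly fixed in advance and support nothing. For these a fold is a bound, the mean at day 0 over a floor set on each covered array by the lowest signal among its probes well above background or by the probe itself, if higher. It is a bound for the processed signal as scaled here only. Normexp and the authors' deposited values gave changes smaller than the bounds printed for the described probes. The 5 with the largest bound are described.

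UF_Ocu_AF_104471 and UF_Ocu_AF_104470 are probes of the same contig. UF_Ocu_AF_104471 had day 0 levels of -1.25, -0.73 and 1.64 (lowest, median and highest) and covered levels of -7.40, -7.71, -7.32, -8.47 and -8.77. All covered arrays were at background, as were both unwounded ones, so the fall was at least 99.9-fold (limma adjusted p = 2.03e-12). UF_Ocu_AF_104470 gave at least 92.8-fold (limma adjusted p = 1.09e-12). In uncovered wounds UF_Ocu_AF_104471 was measured on all arrays, at -2.43 ± 0.34 (SD, n = 6) at day 3 and -1.80 ± 0.96 (SD, n = 6) at day 5, while all 5 covered arrays at day 5 were again at background.

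The other 3 had smaller bounds. UF_Ocu_AF_101404 lay at -3.40 ± 0.45 (SD, n = 6) at day 0 and fell at least 10.8-fold (limma adjusted p = 6.28e-08). Its partner UF_Ocu_AF_101405, also at background on all covered arrays, had a bound of only 2.33-fold (limma adjusted p = 6.54e-07). UF_Ocu_UN_120394 lay at -3.64 ± 0.64 (SD, n = 6) and fell at least 9.21-fold (limma adjusted p = 1.6e-09). The probe from the opposite strand of its contig, UF_Ocu_UN_119870, changed by -1.07. UF_Ocu_AF_111632 lay at -3.66 ± 0.58 (SD, n = 6) and fell at least 9.08-fold (limma adjusted p = 4.18e-09). The partner of the last, UF_Ocu_AF_111633, was well above background on 1 covered array and changed by -3.38 (SE 0.40, limma adjusted p = 9.28e-08).

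A further 13 called falls were at least as large as the smallest of the first 10 but fell outside their selection rule. Some other large falls were chosen after their values were seen. UF_Ocu_AF_105737 and UF_Ocu_AF_105736 of a single contig changed by -7.52 (SE 0.64, limma adjusted p = 7.21e-10) and -7.33 (SE 0.64, limma adjusted p = 1.07e-09). Each lacked a value on 1 day 0 array, whose outlier-flagged spots had been left out, replicate 5 for UF_Ocu_AF_105737 and replicate 6 for UF_Ocu_AF_105736. UF_Ocu_AF_110525 and UF_Ocu_AF_110526 of another contig, detected on 2 covered arrays out of 5, changed by -7.29 and -7.02 (limma adjusted p = 1.4e-11 and 6.37e-12).

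UF_Ocu_AF_109724 and UF_Ocu_AF_109723 of a single contig, also chosen after their values were seen, had a higher mean in uncovered wounds at day 3 than at day 0 and a lower one in covered wounds. UF_Ocu_AF_109724 was at -0.88 ± 0.66 (SD, n = 6) at day 0, and in covered wounds at -7.19, -5.26, -6.79, -3.15 and -7.72, with 2 of these arrays well above background. Uncovered wounds at day 3 were at 3.38 ± 0.46 (SD, n = 6), above every day 0 array, and the fitted covered minus uncovered difference was -9.41 (SE 0.54, limma adjusted p = 7.86e-13). Since 3 of the 5 covered arrays were not well above background, its size is not a measured fold. Its contig partner had covered values of -6.59, -4.91, -6.50, -3.02 and -7.63, with the same 2 replicates highest.

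The largest rises were smaller than the largest falls. Of 1571 probes from 1099 contigs that were measured on every array, called higher and separate between groups, the 10 described rose 11.1-fold to 25.5-fold. Among these 10 the SD of the covered arrays was at most 0.51, against 0.55 to 1.38 at day 0. Among the 10 falls the covered SD ran from 0.25 to 2.10. A further 31 called rises were at least as large as the smallest of these 10 and fell outside their selection rule.

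UF_Ocu_AF_111842 rose most. Its day 0 levels ran from -4.98 through -4.09 to -2.66, and covered wounds were at 0.41, 0.52, 0.45, 1.20 and 0.56. The covered arrays lay close together except replicate 4, which was highest, and none overlapped day 0. The change was 4.67 (SE 0.36, limma adjusted p = 9.86e-11). Unwounded skin was lower than covered wounds, at -0.87 ± 0.57 (SD, n = 2). The second probe of the clone, UF_Ocu_AF_111843, was at background on all 6 day 0 arrays and rose at least 10.95-fold (limma adjusted p = 3.4e-10).

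UF_Ocu_AF_101059 had day 0 levels of -6.04, -4.66 and -3.64 (lowest, median and highest) and covered levels of -0.78, -0.73, -0.86, -0.01 and -0.42. The rise was 17.7-fold (log2 change 4.14, SE 0.32, limma adjusted p = 9.76e-11). UF_Ocu_AF_101060 of the same contig changed by 4.10 (SE 0.33, limma adjusted p = 2.08e-10). It was above background on 5 day 0 arrays out of 6. For UF_Ocu_AF_101059, uncovered wounds at day 3 lay between, at -1.90 ± 0.48 (SD, n = 6).

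UF_Ocu_AF_104733 was at -5.37, -3.83 and -2.70 at day 0 and at -0.08, -0.33, -0.19, 0.57 and 0.13 in covered wounds. The change was 3.94 (SE 0.54, limma adjusted p = 1.05e-06), and 4.02 (SE 0.53, limma adjusted p = 5.92e-07) for its partner UF_Ocu_AF_104734. The groups were well apart, with the wider spread at day 0.

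UF_Ocu_AF_107674 reached 0.27, 0.36, 0.56, 0.56 and 0.18 in covered wounds from a day 0 range of -4.66 to -2.42. The rise was 13.0-fold (log2 change 3.70, SE 0.35, limma adjusted p = 2.36e-09). Unwounded skin, at 0.52 ± 0.06 (SD, n = 2), lay within the range of the covered wounds. No test against the 2 unwounded arrays was run here. UF_Ocu_AF_107673 of the same contig changed by 3.59 (SE 0.37, limma adjusted p = 1.36e-08).

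UF_Ocu_AF_108658 had the highest day 0 array closest to the covered ones. Covered wounds were at 4.74, 4.75, 5.04, 5.01 and 4.67, with an SD of 0.17, and unwounded skin was at 4.86 ± 0.18 (SD, n = 2). Day 0 wounds were at 0.14, 0.96 and 3.98 (lowest, median and highest). The highest day 0 array, replicate 4, stood far above the other 5 and only 0.69 below the lowest covered array. On slide 11, which held that array, the difference was 1.07. The change was 3.54 (SE 0.57, limma adjusted p = 9.89e-06). Its partner UF_Ocu_AF_108659 changed by only 1.62 (SE 0.24, limma adjusted p = 3.18e-06). Uncovered wounds at day 3 lay at 4.62 ± 0.12 (SD, n = 6). At day 5 the level was 2.45 ± 1.07 (SD, n = 6) uncovered and 2.49 ± 1.40 (SD, n = 5) covered.

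UF_Ocu_AF_113899 had almost the same mean in both arms. Covered wounds were at -0.63, -0.06, -0.55, -0.89 and -1.18 and uncovered ones at -0.72 ± 0.72 (SD, n = 6). From day 0, at -4.15 ± 0.63 (SD, n = 6), the change was 3.48 (SE 0.35, limma adjusted p = 8.71e-09). Covered minus uncovered was 0.05 (SE 0.35, limma adjusted p = 0.96).

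The remaining 4 were UF_Ocu_UN_121907, UF_Ocu_AF_110378, UF_Ocu_AF_109104 and UF_Ocu_UN_118945, with changes of 3.95, 3.62, 3.48 and 3.47. UF_Ocu_AF_110378 was among the most even, at -0.09, 0.13, 0.15, 0.49 and -0.07 in covered wounds against -3.50 ± 0.55 (SD, n = 6) at day 0 (limma adjusted p = 6.44e-11). UF_Ocu_AF_109104 was at 0.45 ± 0.13 (SD, n = 5) in covered wounds, and at 0.64 ± 0.18 (SD, n = 2) in unwounded skin. UF_Ocu_UN_118945 is 75% G and C and had the widest covered spread of the 10, from -0.01 to 1.37. The probe from the opposite strand of its clone, UF_Ocu_UN_119584, changed by 0.77.

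Other probes rose from background. On all 5 covered arrays and no day 0 array, 59 probes were well above background, and all 59 were called higher with separate groups. Over all tested probes 26.3% were called higher, and 17.9% were higher without overlap. The 59 probes were chosen by their detection, so their calls were nearly fixed in advance and support nothing. The 5 with the largest bound follow, the floor now being set on the day 0 arrays.

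UF_Ocu_AF_101996 and UF_Ocu_AF_101997 of the same contig rose at least 22.3-fold (limma adjusted p = 4.03e-12) and at least 16-fold (limma adjusted p = 6.65e-13). In covered wounds UF_Ocu_AF_101996 was at -2.49, -2.06, -2.28, -1.90 and -3.06 and its partner at -2.92, -2.58, -2.75, -2.47 and -3.45, in the same order of arrays. Mean levels in unwounded skin were lower, -3.38 ± 0.23 and -3.75 ± 0.01 (SD, n = 2), as were those of uncovered wounds, -4.06 ± 0.59 and -4.64 ± 0.65 (SD, n = 6).

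UF_Ocu_UN_118492 had the largest fitted rise of all tested probes, 5.92, with day 0 levels from -9.55 to -8.62. Since these are background signals, the bound was at least 14.9-fold (limma adjusted p = 4.91e-12). Covered wounds were at -3.19, -3.29, -3.14, -2.21 and -2.85, and the probe from the opposite strand of the contig, UF_Ocu_UN_117771, was well above background on no array of either group. UF_Ocu_AF_113913 rose at least 7.75-fold (limma adjusted p = 1.46e-09). It was the only probe of the 30 whose uncovered mean at day 3, -2.96 ± 0.40 (SD, n = 6), lay past the covered mean of -3.82 ± 0.67 (SD, n = 5) as seen from day 0.

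**Figure D3:**
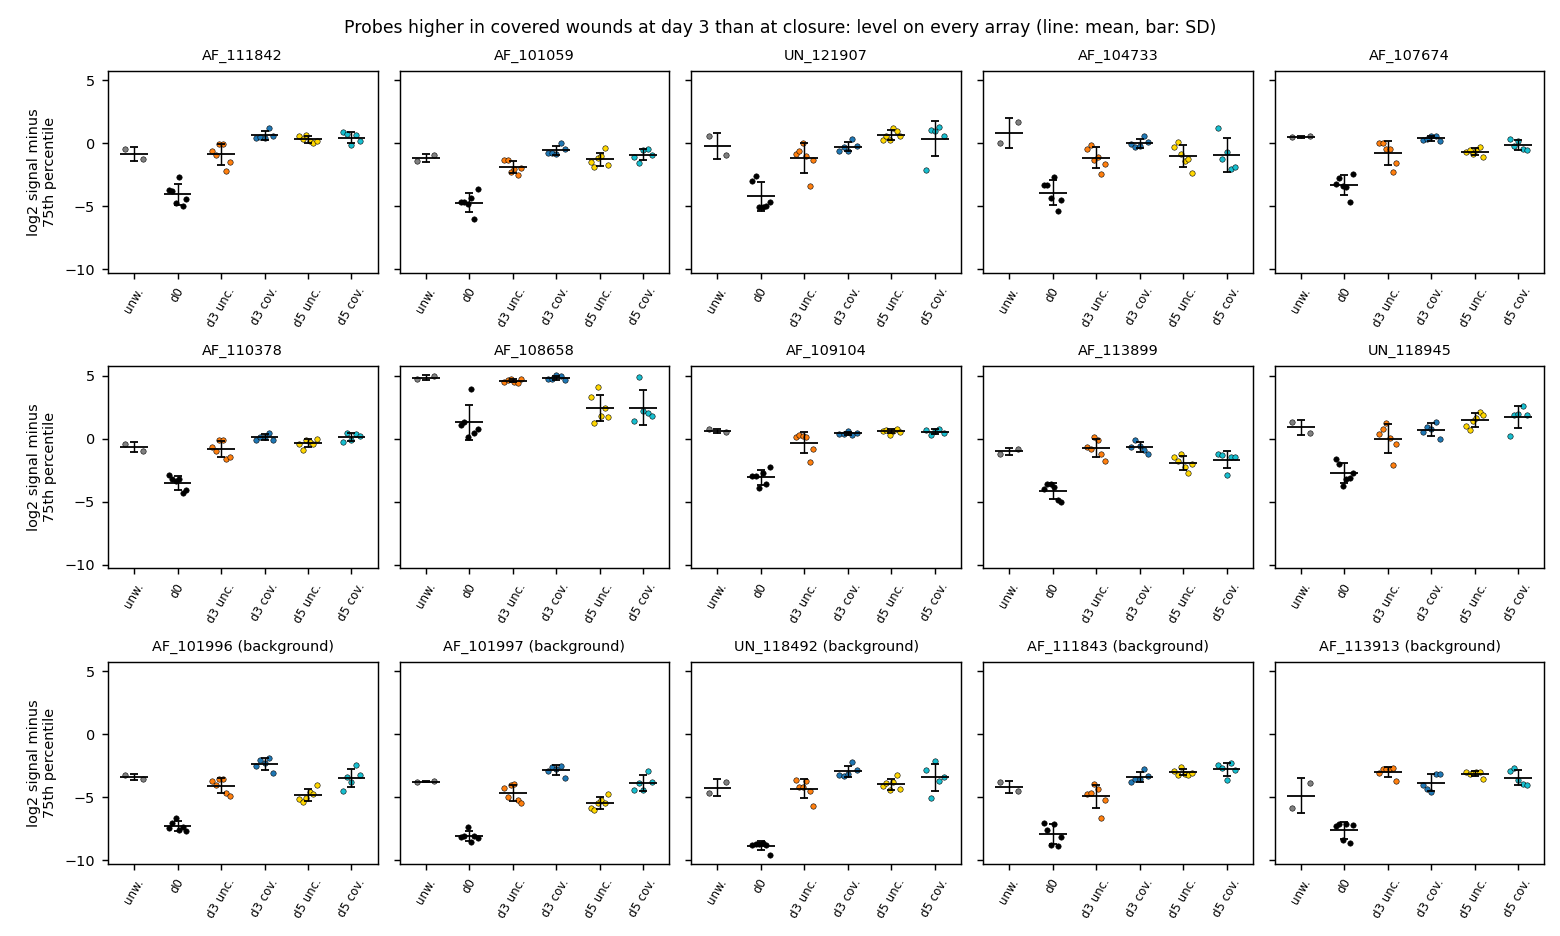
Levels (log2 signal minus the array's 75th percentile) of the 15 described rises on every array, with groups, points, lines and bars as for the falls, and "background" marking probes that were well above background on no day 0 array. In every panel the covered arrays at day 3 lie above all day 0 arrays. UF_Ocu_AF_108658 shows the single high day 0 array at 3.98.

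The change of each described probe was also set against uncovered wounds at day 3. Covered minus uncovered is the difference between both arms' changes from day 0, in which the day 0 arrays cancel. This comparison uses the same covered arrays that chose the probes, so its counts support nothing by themselves. Over all tested probes 2012 (16.3%) were called, 1120 (9.08%) higher and 892 (7.23%) lower under cover. All 15 described falls were lower in covered than in uncovered wounds, with differences from -6.67 to -1.97. For the 5 falls to background the size of this difference is not a measured fold. Of the 15 described rises 8 were higher, with differences between 0.94 and 1.80. The other 7 were not past the threshold, and their differences ran from -0.86 for UF_Ocu_AF_113913 (SE 0.35, limma adjusted p = 0.0889) to 1.18 for UF_Ocu_AF_104733 (SE 0.54, limma adjusted p = 0.145).

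Contigs with more than 1 probe show how far the calls hold along a transcript. For AF probes the design mostly places 2 different stretches of the same strand on each contig. Pairs were taken without selection by strand. Both probes were tested for 4228 contigs, and both were called for 1849 of these. In 1841 pairs the direction was the same (1064 higher, 777 lower) and in 8 it was opposite. Only 1 of the probes was called in 658 pairs, and none in 1721. Across these pairs, which are not independent of each other and share arrays, the changes of both probes correlated at r = 0.915. At the level of contigs, 3556 of the 7577 with a tested probe had at least 1 call. All calls were higher in 2117, all were lower in 1421, and 18 held calls of both directions.

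The 8 opposite pairs are few but some are large, and the following were chosen after their values were seen. UF_Ocu_AF_102070 was lower in covered wounds (change -2.10, SE 0.27, limma adjusted p = 3.82e-07), its covered values being -5.68, -5.50, -6.04, -5.38 and -5.80 against -3.91 to -3.18 at day 0. It was detected on 4 covered arrays out of 5. Its contig partner UF_Ocu_AF_102071 was higher (change 2.76, SE 0.38, limma adjusted p = 1.07e-06), with covered values of 3.00, 2.72, 2.68, 2.93 and 3.36 against -1.01 to 1.02. Neither probe's groups overlapped. UF_Ocu_AF_112305 and UF_Ocu_AF_112306 of another clone also parted, with changes of -1.55 (SE 0.43, limma adjusted p = 0.00408) and 1.36 (SE 0.22, limma adjusted p = 9.87e-06). UF_Ocu_AF_112305 was detected on only 2 covered arrays out of 5, and its call was not kept under all alternatives.

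UN probes come in pairs named for opposite strands of a contig, and for them the agreement was looser. Both were tested in 419 pairs, which share arrays, and both called in 55. Of these 46 moved the same way and 9 moved opposite ways. Exactly 1 strand was called in 148 pairs, and the changes correlated at r = 0.22. UF_Ocu_UN_121885 rose by 3.96 (SE 0.72, limma adjusted p = 5.51e-05) while its opposite, UF_Ocu_UN_122269, fell by 2.04 (SE 0.54, limma adjusted p = 0.00293). The first was well above background on 5 covered and 2 day 0 arrays, the second on 1 covered and 4 day 0 arrays. For UF_Ocu_UN_122269 the groups overlapped, and its call was not kept under all alternatives. UF_Ocu_UN_115643 (change 1.39, SE 0.31, limma adjusted p = 0.000529) and UF_Ocu_UN_122733 (change -1.55, SE 0.43, limma adjusted p = 0.00438) were both measured on all 11 arrays, and the groups of the first overlapped.

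**Figure D4:**
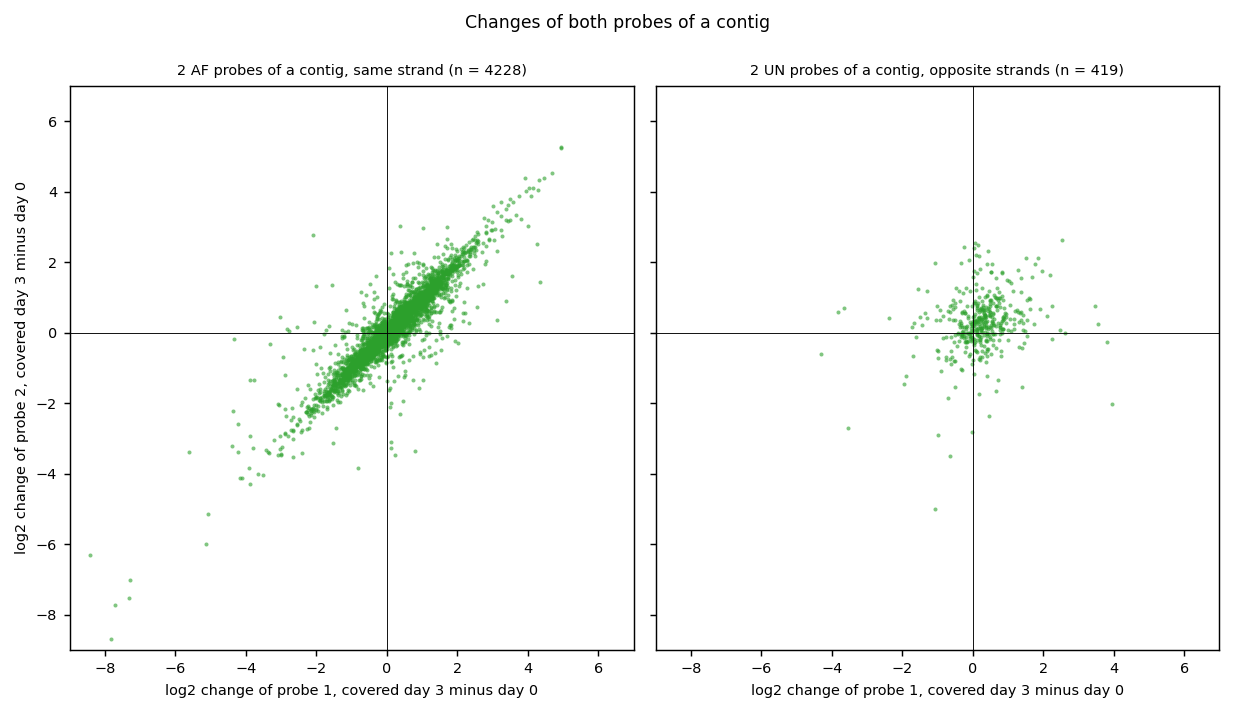
Log2 changes, covered day 3 minus day 0, of both probes of a contig, for 4228 pairs of AF probes and 419 pairs of UN probes on opposite strands. AF pairs were not selected by strand, which the panel title gives as the same. AF pairs follow the diagonal (r = 0.915) and UN pairs scatter around the centre (r = 0.22).

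AM probes lie on the strand opposite to the AF probes of their contig. The pair shown first is complementary over 54 bases, the second over 37, and capitals mark these stretches. They are shown because each strand of the same stretch gave a different result.
UF_Ocu_AM_115100: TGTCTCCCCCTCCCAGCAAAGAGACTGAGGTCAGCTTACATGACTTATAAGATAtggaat
UF_Ocu_AF_103597: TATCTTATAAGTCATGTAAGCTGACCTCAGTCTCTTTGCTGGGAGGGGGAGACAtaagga
UF_Ocu_AM_114773: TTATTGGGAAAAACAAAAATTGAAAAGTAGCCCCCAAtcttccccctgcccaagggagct
UF_Ocu_AF_103760: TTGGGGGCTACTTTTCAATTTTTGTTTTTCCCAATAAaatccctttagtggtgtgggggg
UF_Ocu_AM_115100 was at -2.34, -2.33, -2.71, -3.24 and -2.93 in covered wounds and at 1.34, 2.16 and 2.74 at day 0 (lowest, median and highest). It fell 27.8-fold (log2 change -4.80, SE 0.45, limma adjusted p = 4.98e-09). UF_Ocu_AF_103597 was at -4.70, -4.64, -4.89, -3.68 and -3.77 in covered wounds, inside the day 0 range of -6.17 to -2.88. Its change was -0.02 (SE 0.49, limma adjusted p = 0.98), and that of UF_Ocu_AF_103596 of the same contig was -0.09 (SE 0.44, limma adjusted p = 0.89). UF_Ocu_AM_114773, chosen after its values were seen, fell by 4.13 on the log2 scale (SE 0.61, limma adjusted p = 2.79e-06), from -0.86 ± 0.64 (SD, n = 6) to -4.99 ± 0.39 (SD, n = 5). UF_Ocu_AF_103760 lay at -2.08 ± 0.52 (SD, n = 6) and -1.76 ± 0.28 (SD, n = 5), 0.32 apart (SE 0.30, limma adjusted p = 0.41), which was not past the threshold.

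In all, 208 pairs of an AM and an AF probe had both tested. Both were called in 59, in the same direction in 58, and 1 of them in 74. Over the 205 opposite-strand pairs that are complementary over 20 bases or more, 22 had both called, of which 17 moved the same way and 5 opposite ways.

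The classes differed in how often they were called. Of tested AF probes 48.5% were called (2675 higher, 1993 lower), of AM probes 37.4% (34 and 24) and of UN probes 29.9% (541 and 228). Among probes well above background on all 11 arrays these shares were 52.5%, 32.1% and 33.1%.

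The letters of the probes were searched for short motifs, on the printed strand and as the reverse complement. AATAAA was present in 13.9% of probes called higher, in 13.2% of those called lower and in 8.15% of tested probes called in neither direction, against 7.81% of all probes on the array. Its reverse complement was present in 4.71%, 4.19% and 4.18%, against 3.96%. Over all tested probes the shares of AATAAA and its reverse complement were 10.6% and 4.32%. AATAAA was present in 11.1% of tested AF probes and in 8.63% of tested UN or AM probes. Since AF probes were called more often, the shares of called probes are not matched for class. The instability motif ATTTA occurred in 8.92% of the higher and 7.66% of the lower probes and in 7.68% of tested and 7.56% of all probes. Its reverse complement occurred in 11.6%, 11.1%, 9.59% and 8.73%. Median G and C content was 41.7% for the higher and 45.0% for the lower probes and for all tested ones. Runs of C (CCCCC), chosen for this search after they had been seen in UF_Ocu_AM_115100 and both UN falls, were present in 27.5% of the 40 UN or AM probes that fell at least 4-fold, near the 26.8% of all tested UN or AM probes and above the 10.2% of all probes. The reverse complement was present in 20%, 18.9% and 10.3%. Over all classes CCCCC was present in 3.02% of probes called higher, 5.70% of those called lower and 13.7% of those called in neither direction. The reverse complement was present in 3.78%, 4.05% and 9.32% of these. Only 4.49% of tested AF probes held CCCCC, so these shares are not matched for class either.

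A few probes varied so much between arrays of the same group that a group mean describes none of them. In both groups the SD was above 2 for 10 tested probes of 8 contigs, 2 of which were called. These were UF_Ocu_AF_112225 and UF_Ocu_AF_112226 of the same clone. UF_Ocu_AF_112225 was at -0.74, 0.03, -0.43, -0.65 and -8.72 in covered wounds, and at day 0 at -0.99 in replicate 4 and between -8.95 and -7.26 in the other 5. Each array was thus either bright or at background, and the groups overlapped. The fitted change of 4.94 (SE 1.55, limma adjusted p = 0.0105) is a difference in how many arrays were bright, 4 of 5 against 1 of 6. Uncovered wounds at day 3 were bright on 5 of 6 arrays and unwounded skin on both.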

How the data were processed

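Per the file headers, the deposited scanner files were made with Agilent Feature Extraction 10.1.1.1 from 1-colour (Cy3) arrays, and their processed signal is an intensity that was background-subtracted and detrended within the array, with surrogates near background and no scaling between arrays. The same deposited files hold other columns, flags of 0 or 1 for spots well above background, saturated or outlying. A deposited table of the series gives intensity as processed by the authors, with column medians from 288 to 293. Its log2 values correlated with the scanner signal at r from 0.952 to 0.982. The submitters' processing notes name limma. The scaling of that table is not given in the sources used here.

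Control and outlier-flagged spots were left out, spots of a probe were averaged on the log2 scale, and the 75th percentile of the 7446 probes detected above background on every array was subtracted from each array, since 29 of 30 arrays had under 50% of probes detected. The 12341 probes detected on 2 or more arrays were fitted with limma 3.58.1 in R 4.3.3 (lmFit and eBayes, all 30 arrays, 6 groups, 2-sided, Benjamini-Hochberg, called under 0.05). The fit was tested on simulated data. Tables were made with Python 3.11.15 and pandas 2.3.3.

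The comparison, probes and lists were chosen with earlier results of these data known. Described probes were called and separate between groups. They are the 10 largest rises and falls measured on all 11 arrays (1 per contig), and the 5 largest rises from and falls to background by bounded fold. Other probes are marked as chosen after their values were seen. Rules for gene lists could not be applied, since genes of the probes were not assigned here. The alternatives were other scalings, background correction, the authors' values, filters, slide, scan day or replicate number as a block, array weights, the arrays of 2 groups alone and leaving out single arrays. The number of arrays limits the precision.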

Additional observations from a re-analysis of the deposited data

Results flagged for a closer look

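Single arrays stood apart in 4 of the 60 groups of levels examined, 2 for each of the 30 described probes, by the gap to the nearest other array relative to the range of the group. Chance alone flags about 1 group in 20. UF_Ocu_AF_111842 was at 1.20 in covered replicate 4, above the other covered arrays. UF_Ocu_UN_121601 was at -1.91 in covered replicate 1, where the other 4 arrays lay between -3.48 and -3.29. At day 0, UF_Ocu_AF_108658 was at 3.98 in replicate 4, far above the other 5 arrays, and UF_Ocu_UN_118492 was at -9.55 in replicate 6, below the others and like them at background.

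The change from day 0 differed between covered and uncovered wounds for 23 of the 30 described probes (limma, covered minus uncovered at day 3), which were chosen with the same covered arrays. Over all 12341 tested probes the share was 16.3%, and because of that choice nothing is read from the higher share among them. The difference was -6.67 for UF_Ocu_AF_101828, -6.06 for UF_Ocu_AF_112455, -5.80 for UF_Ocu_AF_104470, -5.51 for UF_Ocu_AF_104471 and -5.19 for UF_Ocu_UN_121601. It was -4.24 for UF_Ocu_AF_101793 and -4.10 for UF_Ocu_UN_117997. Smaller negative differences were -3.32 for UF_Ocu_UN_120394, -3.01 for UF_Ocu_AM_115100, -2.74 for UF_Ocu_AF_101404, -2.55 for both UF_Ocu_AF_111934 and UF_Ocu_AF_103873, -2.45 for UF_Ocu_AF_111632, -2.08 for UF_Ocu_AF_112391 and -1.97 for UF_Ocu_AF_103881. UF_Ocu_AF_104470, UF_Ocu_AF_104471, UF_Ocu_UN_120394, UF_Ocu_AF_101404 and UF_Ocu_AF_111632 were well above background on no covered array at day 3. Their differences are therefore not measured folds. Among the rises it was 1.80 for UF_Ocu_AF_101997, 1.70 for UF_Ocu_AF_101996, 1.54 for UF_Ocu_AF_111843, 1.52 for UF_Ocu_AF_111842, 1.38 for UF_Ocu_UN_118492, 1.34 for UF_Ocu_AF_101059, 1.17 for UF_Ocu_AF_107674 and 0.94 for UF_Ocu_AF_110378.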

How the results depend on the processing

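Each of the 30 described probes kept its direction and its call under all 680 values from the alternatives that could be run for it, with the adjusted p at most 0.0031. Only probes from or to background moved by over 1.5 times on the log2 scale, under normexp or in the authors' deposited values, for example UF_Ocu_UN_118492 from 5.92 to 3.00 and 2.54, UF_Ocu_UN_120394 from -5.00 to -2.89 and -2.10, and UF_Ocu_AF_104471 from -7.73 to -5.05 in the latter. Without covered replicate 1 the change of UF_Ocu_AF_112455 was -9.07 and that of UF_Ocu_AF_101828 -8.56, and without covered replicate 5 the latter was -7.24. With array weights UF_Ocu_AF_112455 changed by -7.00 and UF_Ocu_AF_101828 by -6.24, the smallest change of each under any alternative. Normexp background correction lowered the count of probes higher in covered wounds than at day 0 to 1672 (1762 lower). Leaving out single arrays gave 2929 to 3208 higher and 2065 to 2319 lower. Of the 5495 calls 2987 were kept with the same direction under all 10 other scalings, corrections, blocks, weights and array choices that tested the same probes, and none turned. For covered against uncovered wounds at day 3, normexp gave 320 higher and 494 lower, array weights 2279 and 1908, and no filter on dim probes 674 higher, while single arrays left out gave 783 to 1244 and 659 to 972. With array weights the main comparison called 3896 higher and 3075 lower. Deviations of same-numbered arrays from their group means correlated at -0.41, 0.11, 0.39, -0.39 and -0.20. Such deviations also hold technical variation, so they cannot decide whether equal replicate numbers mark the same animal. With replicate number as a block the main counts were 3199 and 2151, and 1038 and 774 against uncovered wounds. A replicate block changed no call of a described probe. Probes at background on a whole group have only a bound there, which applies to the processed signal as scaled here. Under normexp and in the authors' deposited values, the changes of the described probes from or to background were smaller than these bounds.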
